A study of Mus musculus with 6 samples.

Results

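The genes described here are 37 listed cell cycle and DNA replication genes, of which 36 were measured out of 19533 genes in all. They were taken from the list wherever a probe set naming exactly 1 gene exists, and a gene with several such probe sets is represented by its brightest one on average. Ccnb1, the gene of cyclin B1, has no such probe set and is not described. The members fall into 13 DNA replication genes, 19 mitosis genes and 4 genes of G1/S control. The division gives each gene 1 place. Ccna2, Mki67 and Top2a, whose products are also present before mitosis, stand with mitosis. Brca1, a gene of DNA repair, stands with G1/S control.

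Epithelial cells of the large intestine were compared between germ-free C57BL/6 mice of 2 genotypes, with 3 biological replicates each according to the series text and 1 Affymetrix array per replicate. HDAC3FF mice are the controls, and in HDAC3ΔIEC mice the histone deacetylase HDAC3 is deleted in intestinal epithelial cells. Live cells carrying EpCAM were profiled, and both genotypes were raised without microbes. No age, sex or Cre driver is stated in the labels. Values are deposited log2 signals, and the median over all probe sets lay between 5.25 and 5.31 on the 6 arrays. Hdac3 itself read 6.96, 7.36 and 7.04 in the controls and 6.58, 6.22 and 6.00 in HDAC3ΔIEC, so the groups did not overlap (log2 fold change -0.86 ± 0.17, SE; limma adjusted p = 0.0937). The exons its probe set covers are not given, so it may also read undeleted exons. The epithelial markers Epcam and Vil1 read 10.75 to 11.06 and 10.80 to 11.26 over all arrays.

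In the colon, dividing cells lie in the lower crypt, where stem cells and their transit-amplifying daughters cycle before they differentiate and move to the surface. Cells entering the cycle switch on E2F target genes for DNA replication, among them the MCM helicase subunits and the enzymes that supply deoxynucleotides. Later, in G2 and mitosis, a second wave follows that depends on B-MYB, FOXM1 and the MuvB complex and includes the mitotic cyclins, kinases and spindle proteins. A sample of EpCAM+ epithelial cells mixes dividing and resting cells, and in such bulk RNA fewer dividing cells and less RNA per dividing cell cannot be told apart.

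Promoter windows are shown first because these 2 waves carry different promoter letters. Whether the letters bear on the array values described after them was not tested. RefSeq windows of 300 bases (250 before to 50 after the transcript start, GRCm38.p6, on the strand of the gene) were present for 30 of the 37 listed members, Ccnb1 included. Searched on both strands were the E2F-type letters TTTCCCGC, TTTCGCGC, TTTGCCGC and TTTGGCGC, the cell cycle homology region (CHR) letters TTTGAA and TTCGAA, and the CCAAT box, CCAAT. E2F-type matches on opposite strands can overlap and were then counted separately, and a gene with several windows counted if any of them matched. E2F-type letters stood in 6 of 11 replication genes with a window and in 1 of 16 mitosis genes, against 3.49% of the 15548 measured genes with a window. CHR letters stood in 12 of 16 mitosis genes and 2 of 11 replication genes, against 19.1% of measured genes. A CCAAT box stood in 14 of 16 mitosis and 8 of 11 replication genes, against 41.7%. Over all 27025 genes with a window, measured or not, the shares were 2.60%, 21.7% and 41.1%. These are matches of letters and were not tested as binding sites.

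The first 3 windows are of replication genes, with E2F-type letters and CCAAT boxes in capitals. Rrm1 (chr7:102441445-102441744) and Cdt1 (chr8:122567765-122568064) were the replication members with the largest log2 fold changes that hold a match. Mcm6 (chr1:128359656-128359955), a helicase subunit, was added after its values were seen as an example with 3 E2F-type matches, of which 2 overlap on opposite strands.
Rrm1: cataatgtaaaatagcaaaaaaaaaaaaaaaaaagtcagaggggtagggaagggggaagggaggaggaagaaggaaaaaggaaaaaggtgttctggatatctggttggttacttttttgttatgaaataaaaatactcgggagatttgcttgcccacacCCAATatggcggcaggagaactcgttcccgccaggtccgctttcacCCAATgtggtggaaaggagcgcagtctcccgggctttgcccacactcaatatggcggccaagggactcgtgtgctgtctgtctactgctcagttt
Cdt1: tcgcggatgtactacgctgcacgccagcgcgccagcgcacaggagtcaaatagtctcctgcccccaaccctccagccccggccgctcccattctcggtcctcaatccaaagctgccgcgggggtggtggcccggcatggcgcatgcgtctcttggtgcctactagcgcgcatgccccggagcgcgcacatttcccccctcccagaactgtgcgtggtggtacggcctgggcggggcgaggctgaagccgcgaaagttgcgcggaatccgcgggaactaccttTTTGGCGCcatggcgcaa
Mcm6: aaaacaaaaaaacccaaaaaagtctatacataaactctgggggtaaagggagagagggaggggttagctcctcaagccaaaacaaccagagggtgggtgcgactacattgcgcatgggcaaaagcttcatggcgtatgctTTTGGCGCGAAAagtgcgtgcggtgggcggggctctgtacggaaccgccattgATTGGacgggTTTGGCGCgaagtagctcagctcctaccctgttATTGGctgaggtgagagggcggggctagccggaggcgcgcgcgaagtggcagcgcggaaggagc

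The next 3 windows are of mitosis genes, with CHR letters and CCAAT boxes in capitals. Aurka (chr2:172370521-172370820) and Top2a (chr11:99024140-99024439) were chosen by the same rule. Ccnb2 (chr9:70421505-70421804), the gene of cyclin B2 and the member with the widest range over the control arrays, was added after its values were seen.
Aurka: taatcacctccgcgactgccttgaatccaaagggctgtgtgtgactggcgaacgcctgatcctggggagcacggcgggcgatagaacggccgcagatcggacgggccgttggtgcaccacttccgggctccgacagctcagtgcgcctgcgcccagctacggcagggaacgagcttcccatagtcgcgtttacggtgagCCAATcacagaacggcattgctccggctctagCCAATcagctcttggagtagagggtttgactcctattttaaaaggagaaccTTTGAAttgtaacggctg
Top2a: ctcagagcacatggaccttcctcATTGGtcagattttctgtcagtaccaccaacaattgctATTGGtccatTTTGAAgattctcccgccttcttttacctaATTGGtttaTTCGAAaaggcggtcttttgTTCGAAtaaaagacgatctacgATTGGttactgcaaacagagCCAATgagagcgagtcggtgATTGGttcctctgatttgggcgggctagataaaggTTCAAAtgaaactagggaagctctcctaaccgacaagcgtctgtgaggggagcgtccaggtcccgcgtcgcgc
Ccnb2: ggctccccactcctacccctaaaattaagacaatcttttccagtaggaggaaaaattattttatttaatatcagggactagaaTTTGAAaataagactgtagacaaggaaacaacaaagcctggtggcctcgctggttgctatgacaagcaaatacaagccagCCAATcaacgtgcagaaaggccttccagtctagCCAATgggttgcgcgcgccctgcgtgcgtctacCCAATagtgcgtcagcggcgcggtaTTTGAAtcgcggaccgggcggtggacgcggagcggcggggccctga
In the Ccnb2 window 3 CCAAT boxes begin at -87, -54 and -21, counted in bases from the first transcribed base as 0, and are followed by a CHR match at 4. The Aurka window has the same order, with CCAAT boxes at -51 and -19 and a CHR match at 32. Top2a, the gene of DNA topoisomerase II alpha, held 6 CCAAT boxes and 4 CHR matches. In the Mcm6 window 1 E2F-type match begins at -47 and the overlapping pair at -110 and -106.

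**Figure D1:**
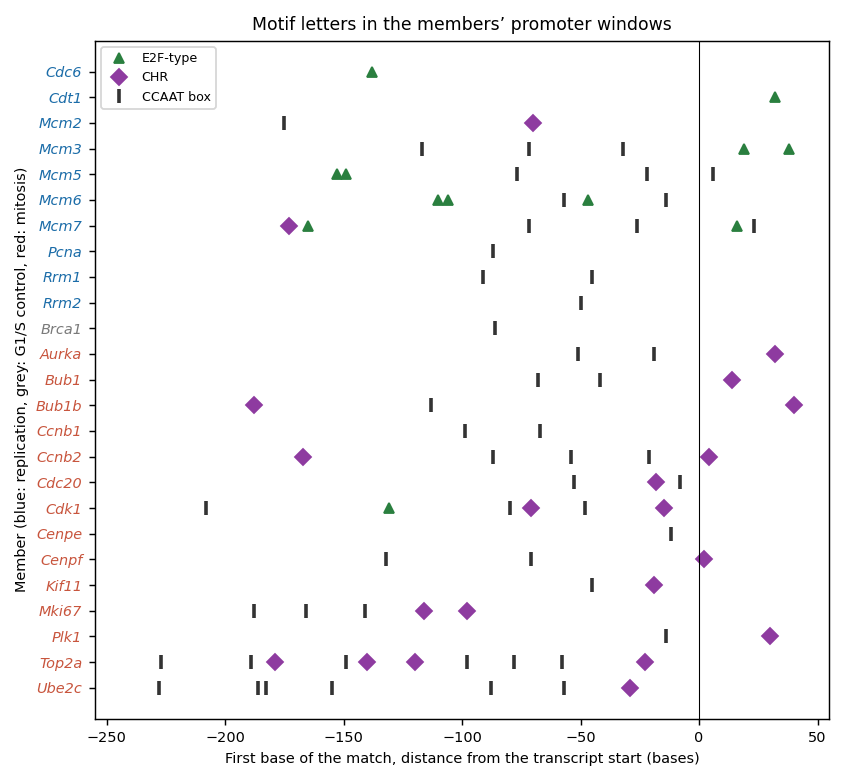
Positions of E2F-type (triangles), CHR (diamonds) and CCAAT box (bars) letters in the first promoter window of each member with a match; the x axis is the distance in bases from the transcript start and each row is a gene. Diamonds lie mostly in the rows of mitosis genes (12 of 16 with a CHR match in any window) and triangles mostly in those of replication genes (6 of 11).

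No member passed the test between genotypes. By limma with Benjamini-Hochberg adjustment over all genes, 0 of the 36 members were called higher and 0 lower at an adjusted p under 0.05, with adjusted p-values from 0.332 to 0.994. Over all genes 0.369% were called higher, 0.333% lower and 0.701% in either direction. At an unadjusted p under 0.05 stood 3 members (8.33%), namely Aurka, Ccne1 and Mcm3, against 11.2% of all genes. The log2 fold change was positive for 33 of the 36 members (91.7%) and for 53.4% of all genes, and its median was 0.09 over the members and 0.01 over all genes. Groups did not overlap for 5 members, all higher in HDAC3ΔIEC (13.9%), and for no member that was lower, against 8.45% and 7.7% of all genes. The members' 95% limma intervals reached from -0.61 for Cenpf to 1.005 for Rrm1, and 33 of 36 included 0. With 3 replicates per group these p-values and intervals rest on the spread between those replicates, which limma moderates with the spread of all genes.

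Within the control group the members shared an order of the arrays. HDAC3FF replicate 2 gave the highest control signal for 32 of the 36 members and HDAC3FF replicate 3 the lowest for 28. Over all genes these arrays were highest and lowest in their group for 33.2% and 34.9%. Over genes above the median signal, where all but 5 members lie, these shares were 44.8% and 40.7%. All 19 mitosis members had their highest control value on replicate 2, and 17 had their lowest on replicate 3. Among all 6 arrays HDAC3FF replicate 3 was the lowest for 27 members (75.0%), against 20.6% of all genes and 24.2% of genes above the median signal. HDAC3FF replicate 2 was the highest of the 6 for 16 members (44.4%), 14 of them mitosis genes, against 17.4% and 25.5%. In HDAC3ΔIEC, replicate 2 was the highest of its group for 22 members (61.1%), against 29.3% of all genes and 36.3% of genes above the median signal. It was the highest of all 6 arrays for 9 of 13 replication members (69.2%), against 14.2% and 16.9%. The range over the 3 control arrays exceeded the difference between genotypes for 31 members, a share (86.1%) near the 81.7% of all genes.

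**Figure D2:**
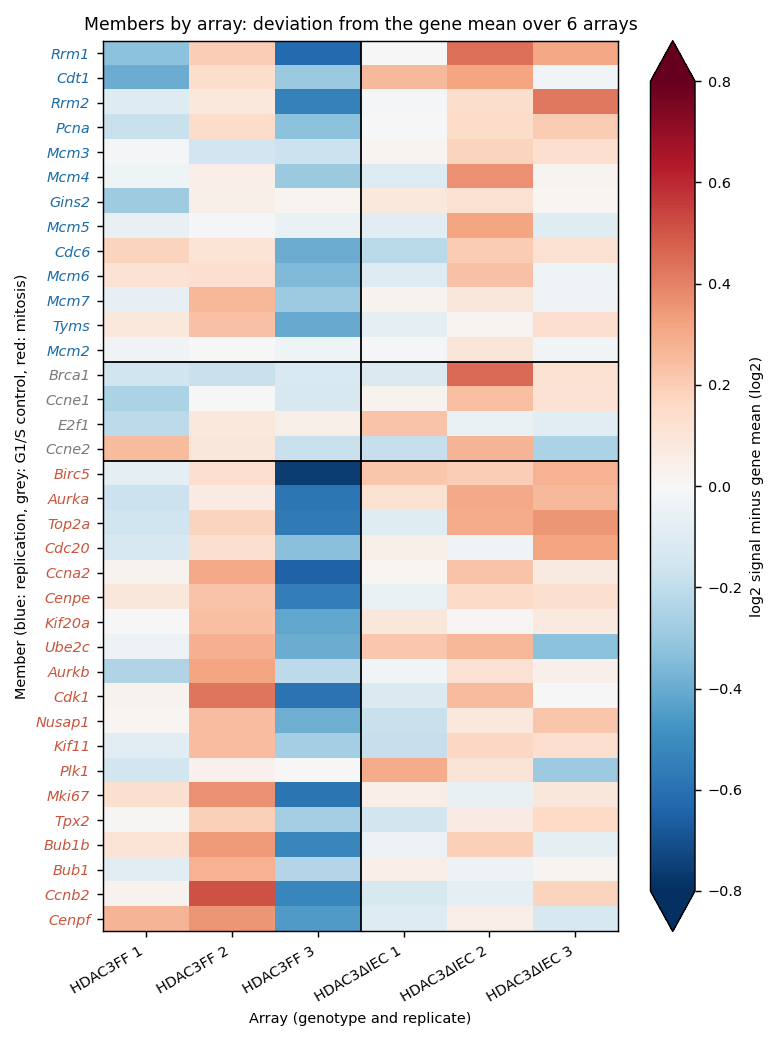
Each row is a member and each column an array; colour gives the log2 signal minus that gene's mean over the 6 arrays, from blue (lower) to red (higher), with replication genes on top, G1/S control genes in the middle and mitosis genes below. The column of HDAC3FF replicate 3 is blue for nearly all mitosis genes and that of HDAC3FF replicate 2 red, while the HDAC3ΔIEC columns are paler.

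Averaged over the 19 mitosis members, the deviation from each gene's 6-array mean was -0.02, 0.26 and -0.44 on HDAC3FF replicates 1, 2 and 3 and 0.002, 0.12 and 0.08 on the HDAC3ΔIEC arrays. The control mean was -0.07 ± 0.35 (SD, n = 3) and the HDAC3ΔIEC mean 0.07 ± 0.06 (SD, n = 3), and all 3 HDAC3ΔIEC values lay between the lowest and the highest control. The 13 replication members averaged -0.08, 0.10 and -0.29 on the control arrays and -0.02, 0.21 and 0.09 on the HDAC3ΔIEC arrays, with group means of -0.09 ± 0.19 and 0.09 ± 0.11 (SD, n = 3). Groups overlapped for both sets. These averages are descriptions, and no p-value was computed for them.

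The contrast of the sets, replication minus mitosis, was -0.06, -0.16 and 0.15 on the control arrays and -0.02, 0.09 and 0.01 on the HDAC3ΔIEC arrays. The genotypes differed in it by 0.05, less than the control SD of 0.16 (n = 3), so a shift of one set against the other between genotypes was not resolved. Within the controls it was highest on replicate 3, where both sets were low and mitosis members were lower: relative to the mean of the other 2 control arrays, mitosis members averaged -0.55 and replication members -0.29. Without replicate 3, the HDAC3ΔIEC mean lay 0.09 above the controls for replication and 0.05 below them for mitosis (-0.05), a contrast of 0.14.

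**Figure D3:**
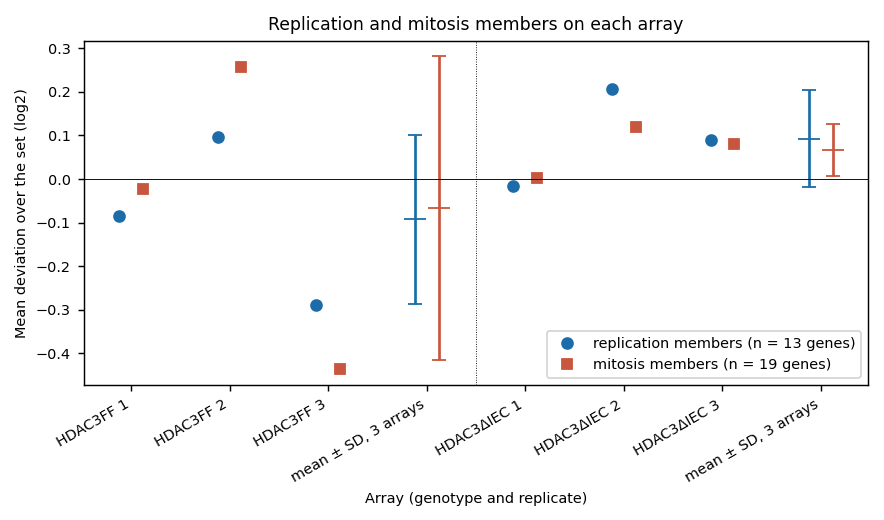
Mean deviation from the gene mean (log2, y axis) over the 13 replication (circles) and 19 mitosis members (squares) on each array (x axis), with each group's mean ± SD over 3 arrays to the right of its points. Mitosis members run from -0.44 to 0.26 in HDAC3FF and from 0.002 to 0.12 in HDAC3ΔIEC.

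Among single mitosis genes, Ccnb2 read 8.70, 9.18 and 8.15 on HDAC3FF replicates 1, 2 and 3 and 8.54, 8.60 and 8.85 in HDAC3ΔIEC. The control range of 1.03 was the widest of any member, and the HDAC3ΔIEC arrays lay within it (log2 fold change -0.01 ± 0.24, SE; limma adjusted p = 0.994; 95% interval -0.58 to 0.56). Mki67, the gene of the proliferation antigen Ki-67, and Cdk1, the kinase that drives entry into mitosis, had the same order in the controls. On HDAC3FF replicate 3 they stood at 0.563 and 0.566 times the mean of the other control arrays, and Ccna2, the gene of cyclin A2, at 0.570 times. Ccna2 read 8.57, 8.85 and 7.90 in the controls and 8.56, 8.77 and 8.62 in HDAC3ΔIEC (0.21 ± 0.23, limma adjusted p = 0.838), and without HDAC3FF replicate 3 its difference was -0.06.

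Birc5 encodes survivin, a subunit of the chromosomal passenger complex, and had the largest mitosis difference. It read 7.89, 8.10 and 7.20 in the controls and 8.19, 8.16 and 8.24 in HDAC3ΔIEC (0.46 ± 0.21, SE; limma adjusted p = 0.489). The groups did not overlap, but the HDAC3ΔIEC values stood only just above HDAC3FF replicate 2, and without replicate 3 the difference was 0.20. Aurka, a centrosomal kinase of spindle assembly, read 7.01, 7.25 and 6.60 against 7.31, 7.48 and 7.44 (0.46 ± 0.16, limma adjusted p = 0.332). Its groups did not overlap either, and without HDAC3FF replicate 3 its difference was 0.28.

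Top2a read 7.35, 7.69 and 6.95 in the controls and 7.41, 7.81 and 7.87 in HDAC3ΔIEC (0.37 ± 0.20, SE; limma adjusted p = 0.598). Cdc20, an activator of the anaphase-promoting complex, read 7.19, 7.44 and 6.98 against 7.36, 7.28 and 7.63 (0.22 ± 0.15, limma adjusted p = 0.681). The groups of both genes overlapped, and without HDAC3FF replicate 3 the differences were 0.18 and 0.11. Of the other mitosis members, the kinases Aurkb (0.09), Bub1 (0.03), Bub1b (0.04) and Plk1 (0.07), the motor proteins Kif11 (0.08), Kif20a (0.12) and Cenpe (0.16), the spindle proteins Tpx2 (0.05) and Nusap1 (0.09), the ubiquitin-conjugating enzyme Ube2c (0.10) and Mki67 (0.06) and Cdk1 (0.09) had small positive log2 fold changes. Cenpf, a kinetochore protein, had the lowest one of all members (-0.12 ± 0.21). Plk1 departed from the shared pattern, with 7.60, 7.78 and 7.74 in the controls and 8.04, 7.85 and 7.45 in HDAC3ΔIEC, and was the 1 mitosis member whose range was wider in HDAC3ΔIEC (0.59) than in the controls (0.18).

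**Figure D4:**
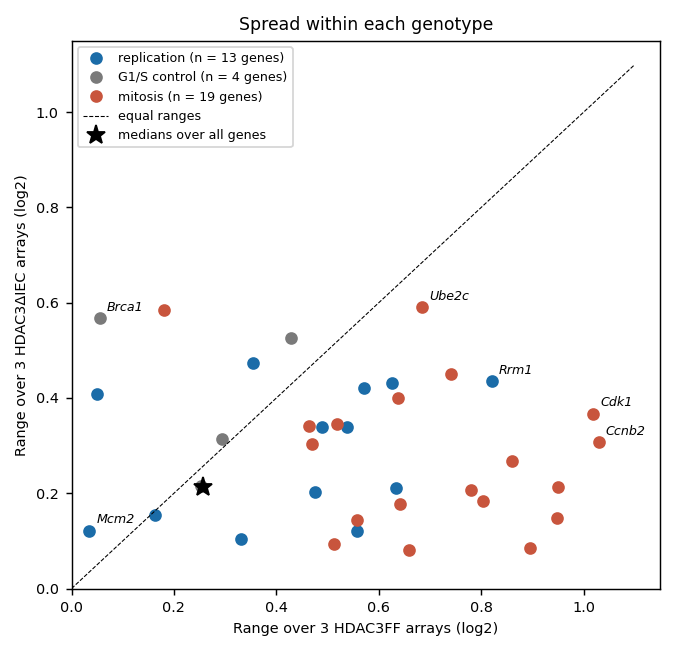
Range over the 3 HDAC3FF arrays (x axis, log2) against the range over the 3 HDAC3ΔIEC arrays (y axis, log2) for each member, with the medians over all genes as a star and equal ranges as a dashed line. Of the members, 29 lie below the line, 18 of them mitosis genes; Ccnb2 and Cdk1 lie farthest to the right.

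The spread within groups differed between the sets. The median range of the mitosis members was 0.68 over the control arrays and 0.27 over the HDAC3ΔIEC arrays, and that of the replication members 0.49 and 0.34. Over all genes these medians were 0.26 and 0.21, and over genes above the median signal 0.35 and 0.27. The control range exceeded the HDAC3ΔIEC range for 29 of 36 members, against 58.3% of all genes. With 3 arrays per group, of which 1 lies low, no test of unequal spread was made.

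Of the replication genes, the subunits of ribonucleotide reductase and Cdt1 had the largest differences over all arrays. Rrm1, the large subunit of ribonucleotide reductase, read 6.60, 7.12 and 6.30 in the controls and 6.93, 7.36 and 7.23 in HDAC3ΔIEC (0.50 ± 0.21, SE; limma adjusted p = 0.450). Rrm2, its small subunit, read 7.01, 7.19 and 6.57 against 7.10, 7.25 and 7.53 (0.37 ± 0.18, limma adjusted p = 0.526). Both pairs of groups overlapped, through HDAC3FF replicate 2. Without HDAC3FF replicate 3 the difference was 0.31 for Rrm1 and 0.19 for Rrm2, the latter no larger than those of Gins2 (0.20) and Mcm3 (0.19). Tyms, thymidylate synthase, differed by 0.06 ± 0.17, and on HDAC3FF replicate 3 it stood at 0.678 times the mean of the other controls.

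Cdt1, which loads the MCM helicase onto origins, read 4.92, 5.46 and 5.02 in the controls and 5.58, 5.63 and 5.30 in HDAC3ΔIEC (0.37 ± 0.16, SE; limma adjusted p = 0.464). Cdc6, the other licensing factor, differed by 0.07 ± 0.18. Pcna, the sliding clamp of the replicative polymerases, read 10.54, 10.87 and 10.39 against 10.72, 10.86 and 10.92 (0.24 ± 0.13, limma adjusted p = 0.610). Groups overlapped for Cdt1 and Pcna, again through replicate 2, and without HDAC3FF replicate 3 the differences were 0.31 and 0.13.

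The 6 subunits of the MCM helicase did not share one pattern. Mcm3 read 5.05, 4.90 and 4.88 in the controls and 5.08, 5.23 and 5.19 in HDAC3ΔIEC (0.22 ± 0.09, SE; limma adjusted p = 0.416), with groups that did not overlap at a dim signal below the median gene. Mcm2 hardly varied, with a control range of 0.03 and a difference of 0.04 ± 0.08. Mcm5 had a control range of 0.05 but an HDAC3ΔIEC range of 0.41, with 5.97, 6.38 and 5.97 on those arrays. Mcm4, Mcm6 and Mcm7 were lowest in the controls on replicate 3, at 0.807, 0.717 and 0.761 times the other controls, and differed between genotypes by 0.19, 0.07 and 0.06. Gins2, a subunit of the GINS complex that joins the helicase at the fork, was the 1 replication member not below the other controls on replicate 3 (1.104 times) and differed by 0.15.

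Among the G1/S control genes, Ccne1, the gene of cyclin E1, read 5.43, 5.68 and 5.55 in the controls and 5.71, 5.92 and 5.80 in HDAC3ΔIEC (0.26 ± 0.10, SE; limma adjusted p = 0.411). These groups did not overlap, and without HDAC3FF replicate 3 the difference was 0.25. Brca1, which acts in repair of broken DNA by homologous recombination, read 4.63, 4.62 and 4.67 against 4.68, 5.24 and 4.92 (0.31 ± 0.14, limma adjusted p = 0.494), again without overlap but at a dim signal, and with HDAC3ΔIEC replicate 1 only just above the controls. Ccne2, the gene of cyclin E2, read 5.78, 5.62 and 5.35 against 5.34, 5.80 and 5.28 and had a negative log2 fold change (-0.11 ± 0.17). E2f1, which encodes a transcription factor of the replication wave, read 4.58, 4.87 and 4.83 against 5.02, 4.73 and 4.70 (0.06 ± 0.12). HDAC3FF replicate 3 stood at 0.997, 1.03 and 1.08 times the other controls for Ccne1, Brca1 and E2f1, unlike most replication and mitosis genes. For Ccne2 it stood at 0.786 times.

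**Figure D5:**
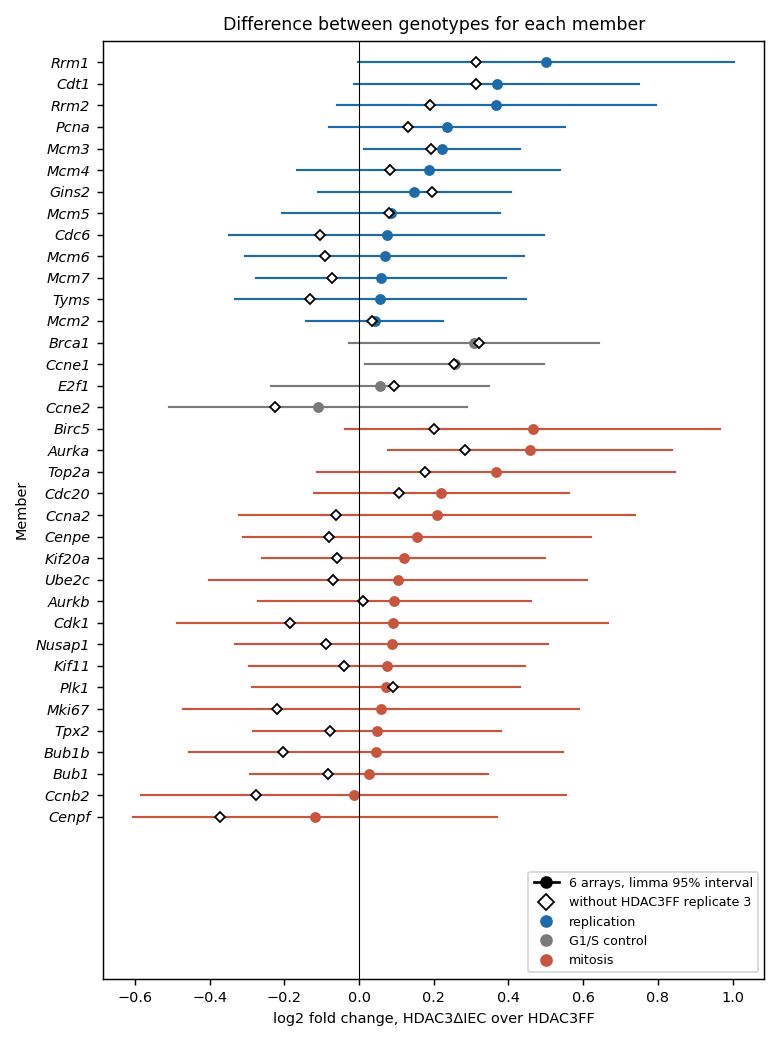
log2 fold change of each member between genotypes (x axis), as the limma estimate from 6 arrays with its 95% interval (filled points, bars) and as the estimate without HDAC3FF replicate 3 (open diamonds). All but 3 intervals include 0, and the open diamonds of 15 members lie on the other side of 0 from the filled points.

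Leaving out HDAC3FF replicate 3 brought the members' median log2 fold change to -0.01, with 18 of 36 values positive; 9 of 13 were positive among replication and 6 of 19 among mitosis members. Leaving out HDAC3FF replicate 2, the control with high values, brought the median to 0.25. No member was called in either case. Differences with any 1 array left out ran from 0.20 to 0.65 for Birc5, 0.28 to 0.60 for Aurka and 0.18 to 0.55 for Top2a. They ran from 0.31 to 0.72 for Rrm1, 0.19 to 0.50 for Rrm2, 0.26 to 0.53 for Cdt1 and 0.13 to 0.37 for Pcna. For Cdc20 they ran from 0.11 to 0.34.

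Further genes of the cycle were taken from 6 lists. Of 147 further measured genes, 0 passed in either direction by limma (adjusted p from 0.0735), against 0.701% of all genes. At an unadjusted limma p under 0.05 stood 16 of them, a share (10.9%) near the 11.2% of all genes. HDAC3FF replicate 3 was the lowest control for 44 of 48 other mitosis genes and 29 of 42 other replication genes, whose median log2 fold changes were 0.10 and 0.08. In this replication list the smallest p were for Pola2, a subunit of DNA polymerase alpha (0.56 ± 0.13 SE, limma adjusted p = 0.127), and Pold3, a subunit of DNA polymerase delta (0.39 ± 0.11). In this mitosis list they were for Pttg1, which encodes securin (-0.37 ± 0.11), and Ndc80, a kinetochore gene (0.26 ± 0.10).

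The regulators of the cycle gave values in both directions. Wee1, the gene of a kinase that holds CDK1 inactive, read 6.79, 6.45 and 7.12 in the controls and 5.92, 5.79 and 5.44 in HDAC3ΔIEC (-1.07 ± 0.19, SE), the largest difference in these lists, but it did not pass (limma adjusted p = 0.0735). Its groups did not overlap, the highest HDAC3ΔIEC value being 5.92 and the lowest control 6.45. Tfdp2, which encodes a dimerisation partner of E2F factors, read 8.11, 8.28 and 8.03 against 7.49, 7.70 and 7.29 (-0.65 ± 0.13, limma adjusted p = 0.0877), and E2f3 differed by -0.50 ± 0.16. Ccnd1, the gene of cyclin D1, read 7.95, 8.15 and 7.59 against 8.53, 8.83 and 8.14 (0.61 ± 0.20, limma adjusted p = 0.304), with groups that met at about the same value. Of 13 G1 cyclins, kinases and CDC25 genes 6 had positive and 7 negative log2 fold changes (median -0.01), and of 17 E2F, MYB, FOXM1 and MYC factors 8 and 9 (median -0.03). Foxm1 (-0.03 ± 0.09; 0.003 with quantile normalization) and Mybl2 (0.13 ± 0.10), the factors of the mitotic wave, and Myc (-0.22 ± 0.23) did not pass.

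Of 10 measured CDK inhibitors and RB family genes, 8 had negative log2 fold changes (median -0.07), with Rbl2, a pocket protein that represses E2F targets, at -0.42 ± 0.13 (SE; limma adjusted p = 0.266) and Cdkn2c at -0.28 ± 0.17. Cdkn1a, the gene of the inhibitor p21, is only on a probe set naming several genes and was not analysed here. Of 17 S phase checkpoint and repair genes 11 were positive (median 0.05), and the smallest p were for the exonuclease gene Exo1 (0.31 ± 0.12) and the checkpoint kinase gene Atm (-0.53 ± 0.23).

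Several marker lists also shifted on HDAC3FF replicate 3. The 12 measured crypt base and Wnt target markers averaged 0.10, 0.22 and -0.17 on the control arrays, as deviations from the gene means, and 0.01, -0.003 and -0.16 on the HDAC3ΔIEC arrays, and all 12 were lower on HDAC3FF replicate 3 than the mean of the other controls. Their summed linear signal was 1428 on that array, 1750 and 1874 on the other controls and 1341 to 1601 in HDAC3ΔIEC. Such a sum is weighted to bright genes, here above all Slc12a2 (log2 signal 9.18 to 9.67). The 13 surface colonocyte markers averaged -0.14, -0.11 and 0.08 in the controls and 0.13, 0.18 and -0.13 in HDAC3ΔIEC, the 8 epithelial markers -0.16, -0.10 and 0.07 and 0.09, 0.17 and -0.08, and the 8 fibroblast and endothelial markers -0.05, -0.04 and 0.17 and -0.06, 0.02 and -0.05. Surface and epithelial markers thus averaged the same 0.20 higher on HDAC3FF replicate 3 than on the other controls. Fibroblast and endothelial markers averaged 0.21 higher. Not every gene shared this, as 3 of 13 surface, 2 of 8 epithelial and 1 of 8 fibroblast and endothelial markers were lower there. HDAC3ΔIEC replicate 3 shared the low crypt marker average but not the low mitosis values (0.08). The 12 immune markers had a median signal of 4.27 and summed to between 248 and 263 in the controls and between 252 and 277 in HDAC3ΔIEC. Between genotypes, log2 fold changes were positive for 6 of 12 crypt markers (median -0.05), 9 of 13 surface markers (0.13), 5 of 8 epithelial markers (0.14), 6 of 12 immune markers (0.001) and 1 of 8 fibroblast and endothelial markers (-0.04). The crypt average differed by -0.10, and by -0.21 without HDAC3FF replicate 3. Lgr5 had the largest difference of the crypt list (-0.73 ± 0.23, SE; limma adjusted p = 0.267). Groups did not overlap for 7 surface markers, 5 higher (38.5%) and 2 lower in HDAC3ΔIEC, against 8.45% and 7.7% of all genes. Nor did they for 3 epithelial markers, all higher, and 3 immune markers, 2 higher and 1 lower. Of the crypt list 1 marker, and of the fibroblast and endothelial list 1, was lower without overlap. Single genes did not stand for their lists: the brightest of each differed by -0.16 (Slc12a2, crypt), -0.17 (Guca2a, surface), 0.26 (Krt8, epithelial), 0.51 (Cd68; the other myeloid markers Adgre1, Itgam and Csf1r differed by -0.03, -0.06 and 0.04) and -0.06 (Col1a1, fibroblast), and the next brightest by -0.62 (Myb), 0.07 (Lypd8), 0.30 (Krt19), -0.22 (Cd3e, a T cell gene) and -0.21 (Dcn). No crypt, surface, epithelial, immune or stromal marker passed by limma (smallest adjusted p = 0.0819). The part of these shifts in the members' values was not tested.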

How the data were processed

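Gene expression was measured with 1 Affymetrix array per sample, 3 per genotype. The authors deposited log2 signals per probe set, as the range of the values shows; per the submitters' processing notes the software was Affymetrix Power Tools. Its version, background correction, normalization and filters: not given in the sources used here. Signals below background are not marked, and precision is limited by the number of arrays. The platform annotation pairs 21105 of 24939 probe sets with 1 gene symbol, 1254 with several and 2580 with none; 21022 of the 21105 matched RefSeq GRCm38.p6 by Entrez number. The probe set with the highest mean was kept per gene.

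All 19533 genes were fitted with limma 3.58.1 in R 4.3.3 (lmFit, eBayes, two-sided, no covariate), with Benjamini-Hochberg adjustment and calls at an adjusted p under 0.05. Fold changes are HDAC3ΔIEC minus HDAC3FF on the log2 scale, with moderated SE. Sets were described by counts, medians and per-array means of deviations. The fit was tested on simulated data.

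Members, lists and tests were chosen with earlier results of these data known. Values on every array are given for the 5 largest changes and the 2 widest ranges among replication and among mitosis members and for the G1/S genes; each further list gives its called genes or else its 2 smallest p, plus Ccnd1, Myc, Foxm1 and Mybl2, and of the markers Epcam, Vil1 and the 2 brightest of each list. Details of Plk1, Mki67, Cdk1, the MCM genes, Adgre1, Itgam, Csf1r, Lgr5, Atm and Myb and E2F-type or CHR examples were chosen after their values were seen. Alternatives were a replicate block, 2 other priors, array weights, 2 normalizations, 2 dim filters, the mean of all probe sets, each array left out, replicate 3 of both groups left out, a threshold of 0.10, an unmoderated statistic and other divisions of the members. Figures were drawn with matplotlib 3.10.9.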

Additional observations from a re-analysis of the deposited data

How the results depend on the processing

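The count of 0 called members held under every alternative run, including a replicate block, an adjusted p under 0.10 and an unmoderated statistic. Over all genes the count of 137 became 12 with the replicate block, 357 with array weights, 321 at an adjusted p under 0.10, 0 with the unmoderated statistic (where 1858 had an unadjusted p under 0.05), 744 without replicate 3 of both groups and 13 (without HDAC3FF replicate 1) to 430 (without HDAC3FF replicate 3) with 1 array left out. Deviations of same-numbered arrays from their group means correlated over genes at r = -0.02, -0.07 and -0.20. For arrays of unlike numbers r ran from -0.21 to 0.20. Deviations from a mean of 3 arrays depend on one another, so these values cannot show whether the numbers pair the samples. With 1 array left out, the median log2 fold change ran from -0.01 to 0.25 over all members, 0.06 to 0.21 over replication and -0.07 to 0.27 over mitosis members, and the contrast of the sets from -0.02 to 0.14. Without replicate 3 of both groups the medians were 0.01, 0.09 and -0.09. Wee1 passed with an intensity trend, array weights, the dim filter at the median or without replicate 3 of both groups (limma adjusted p from 0.0392 to 0.0448).

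Of the 36 members, 21 changed sign with some array left out and 15 kept their sign. Without HDAC3FF replicate 3 the sign changed for 15, and without HDAC3ΔIEC replicate 2 for 7. With 1 array left out, the log2 fold changes of genes that changed sign ran over these ranges: Ccna2 (-0.062 to 0.41), Mcm5 (-0.051 to 0.15), Mcm6 (-0.092 to 0.15), Mcm7 (-0.072 to 0.21), Cdc6 (-0.11 to 0.20), Tyms (-0.13 to 0.19), E2f1 (-0.043 to 0.11), Mki67 (-0.22 to 0.26), Ccnb2 (-0.28 to 0.24), Cdk1 (-0.18 to 0.33), Aurkb (-0.0048 to 0.27), Bub1 (-0.083 to 0.17), Bub1b (-0.20 to 0.23), Plk1 (-0.058 to 0.24), Kif11 (-0.0403 to 0.22), Kif20a (-0.059 to 0.27), Tpx2 (-0.078 to 0.16), Ube2c (-0.069 to 0.29), Nusap1 (-0.088 to 0.23), Cenpe (-0.082 to 0.31), Cenpf (-0.37 to 0.029), Myc (-0.49 to 0.0009), Foxm1 (-0.073 to 0.038) and Epcam (-0.11 to 0.015). Without replicate 3 of both groups, the sign changed for Ccna2 (-0.047), Mcm6 (-0.058), Mcm7 (-0.043), Cdc6 (-0.15), Tyms (-0.18), Mki67 (-0.25), Cdk1 (-0.16), Bub1 (-0.088), Bub1b (-0.15), Kif11 (-0.087), Kif20a (-0.069), Tpx2 (-0.14), Nusap1 (-0.18), Cenpe (-0.11), Dcn (0.064) and Epcam (0.067). With array weights, which gave HDAC3FF replicate 3 the lowest weight (0.475), it changed for Cdc6 (-0.038), Tyms (-0.054), Mki67 (-0.079), Cdk1 (-0.015), Bub1 (-0.014), Bub1b (-0.042), Tpx2 (-0.039) and Nusap1 (-0.033). It changed for Ccnb2 with median centring (0.0004) and for Foxm1 with quantile normalization (0.0026).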

Other observations

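Atm, a checkpoint kinase gene, read 5.74, 5.96 and 5.02 on HDAC3FF replicates 1, 2 and 3 and 5.07, 4.97 and 5.08 on the HDAC3ΔIEC arrays, so that HDAC3FF replicate 3 lay among the HDAC3ΔIEC values. Its log2 fold change over all arrays was -0.53 ± 0.23 (SE; limma adjusted p = 0.440). Myb, a transcription factor gene of the crypt base, read 8.03, 8.30 and 7.48 against 7.43, 7.31 and 7.22 (-0.62 ± 0.20, limma adjusted p = 0.277), with HDAC3FF replicate 3 nearest to the HDAC3ΔIEC values. Both were singled out after these values were seen, so their order is a description only.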
